A study of Drosophila melanogaster with 30 samples.

Results

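Odorant-binding proteins are small secreted proteins that support cells release into the fluid around the dendrites of olfactory and taste neurons. There they bind hydrophobic odorants and tastants, and they are known to carry ligands to receptors, to buffer them or to take part in their removal. In *Drosophila* the family also includes members that are expressed outside the chemosensory organs, among them members of the fat body, of glia and of the male reproductive tract. The genes described here are those whose symbol in the count files begins with Obp followed by a digit, and 51 of the 17471 listed genes met this rule. The family member *lush*, which carries another symbol, was therefore treated as one of the other olfactory genes.

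Expression was measured by RNA sequencing of whole heads of female *Drosophila melanogaster*, each sample being a pool of 100 heads of flies aged 3 to 7 days. The BUT+ and BUT- lines had been selected for 30 generations for attraction to and for avoidance of 2,3-butanedione, the CYC+ and CYC- lines likewise for cyclohexanone, and the control lines had been kept without odor selection. All lines descended from 1 outbred base population. Each of the 5 treatments had 3 replicate lines and each line had 2 samples, which gave 30 libraries of 21194086 to 38621924 counted reads, with a median of 29967406. A treatment is therefore represented by 3 lines, and drift within a line and selection cannot be told apart in a single line.

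Levels are given in counts per 1000000 counted reads (CPM), scaled between libraries by TMM (trimmed mean of M-values) factors. A line's level is the mean of its 2 samples, and errors are the SD over 3 lines. Differences are log2 fold changes with standard errors from edgeR's quasi-likelihood test over the 9240 genes that had at least 1 CPM in at least 15 libraries. A gene was called where its p-value, adjusted by Benjamini-Hochberg over those 9240 genes, was below 0.1. In the treatment comparisons the 2 samples of a line entered as separate libraries. Their p-values and standard errors thus count 6 libraries per treatment where there were 3 lines. Of the 51 *Obp* genes, 27 passed the filter and 24 did not. In the smallest library 1 CPM corresponded to 21.2 reads. Because whole heads were sequenced, fewer cells of a type and less RNA per cell cannot be told apart.

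The libraries carried the markers of the tissue on their labels. The 10 antennal genes summed to 584 to 836 CPM, the olfactory co-receptor gene *Orco* lay between 69.2 and 96.0 CPM, and the photoreceptor opsin *ninaE* lay between 24690 and 38344 CPM. The neuronal list summed to 1571 to 2765 CPM, the glial list to 1923 to 2356 CPM and the muscle list to 1982 to 3881 CPM. Of the 2 male-specific RNAs, *roX2* stayed at or below 1.07 CPM and *roX1* lay between 1.87 and 5.23 CPM. *roX1* was called lower than in control in BUT+ (log2 -0.67) and in BUT- (log2 -0.68). The 4 genes of the male reproductive tract summed to at most 0.258 CPM. The 6 ovarian genes summed to 0.173 to 14.2 CPM with a median of 0.910 CPM. The head fat body list of 7 measured genes, most of it the yolk protein genes *Yp1*, *Yp2* and *Yp3*, ranged from 17195 to 97596 CPM.

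*Obp* transcripts made up 0.495 to 0.663% of the counted reads of a library, with a median of 0.582%. Together 4 genes carried 74.5% of all *Obp* reads. These were *Obp19d* with 27.3%, *Obp56d* with 19.0%, *Obp44a* with 16.3% and *Obp99c* with 11.8%. The mean summed level was 6130 ± 217 CPM in BUT+, 6087 ± 226 CPM in BUT-, 5851 ± 190 CPM in CYC+, 5450 ± 318 CPM in CYC- and 5740 ± 468 CPM in control (SD, n = 3 lines).

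Levels between genes were compared per kb of exon. *Obp19d* (FBgn0011280), which is expressed in antennae and in taste organs, had the highest level with 1435 CPM per kb, above 99.7% of the tested genes with a gene model. *Obp56d* followed with 1206, *Obp99c* with 1063 and *Obp44a* with 887 CPM per kb. A gap separated these 4 from *Obp83b* with 335 and *Obp83a* with 296 CPM per kb, the OS-E and OS-F genes of trichoid and intermediate antennal sensilla. *Obp56g* with 282, *Obp28a* with 239, *Obp99a* with 212 and *Obp57c* with 195 CPM per kb completed the 10 highest. Neighbours in this order were not all separated by the spread over lines, since the line ranges of *Obp83b* and *Obp83a* per kb overlapped, as did those of *Obp56d*, *Obp99c* and *Obp44a*. The range of *Obp19d* also overlapped with those of *Obp56d* and *Obp99c*.

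**Figure D1:**
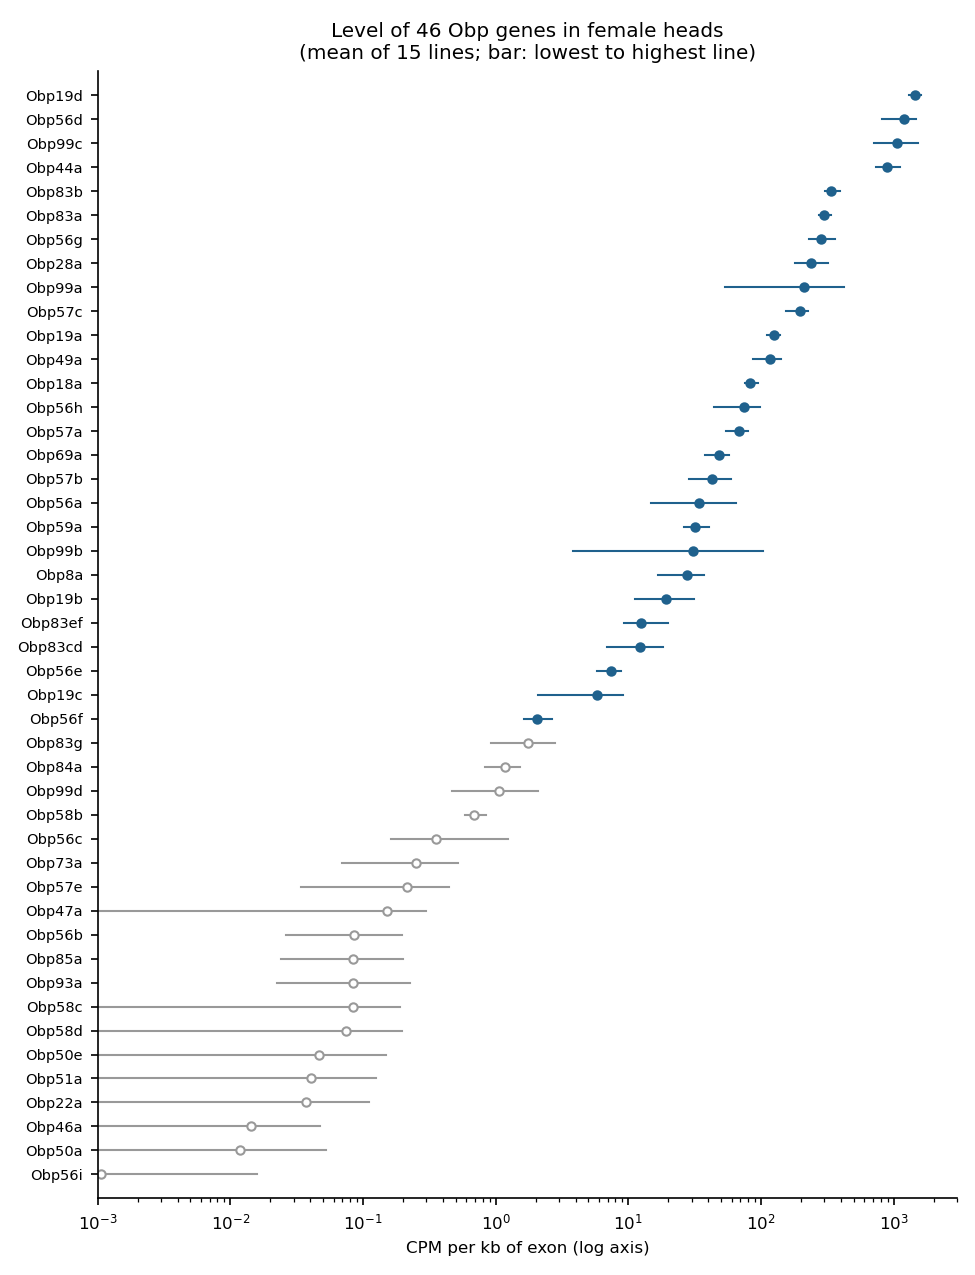
Level of the 46 *Obp* genes with at least 1 read, in CPM per kb of exon on a log axis. Points are means of 15 lines and bars run from the lowest to the highest line mean, with filled points for the 27 genes that passed the filter and open points for the others. Bars that reach the left edge include lines without a read. *Obp19d* stands at the top with 1435 CPM per kb, and the genes that passed the filter span a 701-fold range.

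The other 17 genes that passed the filter ran from *Obp19a* with 124 CPM per kb to *Obp56f* with 2.05 CPM per kb. *Obp19a* (70.7 to 89.0 CPM over the 15 lines), *Obp49a* (68.2 to 110.2 CPM) and *Obp18a* (55.6 to 69.3 CPM) were the highest of them. *Obp49a* is known for the suppression of sugar responses by bitter compounds in taste sensilla. *Obp57a* lay between 30.6 and 44.3 CPM, and *Obp69a*, a pheromone-binding protein-related gene of the antenna, between 20.6 and 31.2 CPM. *Obp56a* ranged from 8.10 to 35.4 CPM and *Obp8a*, known from the male accessory gland, from 9.94 to 22.3 CPM. The double-domain genes *Obp83cd* and *Obp83ef* lay between 6.23 and 16.4 CPM and between 8.42 and 17.8 CPM. *Obp19c* ranged from 2.05 to 8.84 CPM, *Obp56e* from 3.09 to 4.71 CPM and *Obp56f* from 0.861 to 1.41 CPM.

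Of the 24 genes that did not pass the filter, 6 had a mean of at least 0.1 CPM. *Obp83g* had a mean of 1.00 CPM with line means from 0.526 to 1.59 CPM, and *Obp84a*, known from coeloconic sensilla of the antenna, had a mean of 0.953 CPM. *Obp99d* had 0.533, *Obp58b* 0.475, *Obp56c* 0.342 and *Obp73a* 0.229 CPM. In *Obp56c* the first control line stood at 1.204 CPM, against a lowest line mean of 0.158 CPM.

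Another 13 genes had between 1 and 80 reads in all 30 libraries together, with a highest mean of 0.0884 CPM. They were *Obp22a*, *Obp46a*, *Obp47a*, *Obp50a*, *Obp50e*, *Obp51a*, *Obp56b*, *Obp56i*, *Obp57e*, *Obp58c*, *Obp58d*, *Obp85a* and *Obp93a*. No read was counted for *Obp47b*, *Obp50b*, *Obp50c*, *Obp50d* and *Obp57d* among 933300369 reads, which allows a level of up to 0.00321 CPM over all libraries, a limit that covers counting error only. *Obp57d* and *Obp57e* are known from taste hairs of the leg, a tissue outside the head. *Obp50b* and *Obp50c* share 1 set of coordinates in the annotation, so a read could not be assigned to either of them by position. *Obp57d* overlaps *Cpr57A* on the same strand and *Obp47b* overlaps *CG7741* on the opposite strand. How reads shared by overlapping genes were counted is not given in the sources used here. For *Obp47b*, *Obp50b*, *Obp50c* and *Obp57d* the limit above therefore does not cover reads that were left uncounted.

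By position, 33 of the 51 genes lay within 20 kb of another *Obp* gene, in 10 groups, and neighbours differed widely in level. All coordinates are from Ensembl annotation 115 on the release 6 assembly. On the X chromosome, *Obp19a*, *Obp19b*, *Obp19c* and *Obp19d* lay between 20415744 and 20420979 and all 4 passed the filter, but their levels ran from 5.81 to 1435 CPM per kb. On 2R, the 6 genes from *Obp56a* to *Obp56f* lay between 19697723 and 19713976 and ran from 0.0853 to 1206 CPM per kb. The *Obp57c*, *Obp57b* and *Obp57a* genes on 2R, between 20503584 and 20505758, were closer in level with 42.9 to 195 CPM per kb. The 5 *Obp50* genes, between 14370331 and 14375385 on 2R, were all at or below 0.0468 CPM per kb.

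The 6 pairwise comparisons share samples. The 6 control libraries served in 4 of them, so their results are given side by side and are not independent of each other. Of the 27 tested *Obp* genes, none was called in BUT+ vs. control, where 2.99% of all tested genes were called with edgeR. In this comparison 2 of the 27 *Obp* genes had an unadjusted p below 0.05 in edgeR, against 14.7% of all tested genes. DESeq2 and voom also called 0, against 422 and 147 of all genes. With the sample number as a block edgeR called 1, against 388 of all genes. With the 12 libraries compared alone it called 2, against 589 of all genes. BUT+ vs. BUT- gave 1 called *Obp* gene against 0.660% of all genes, and BUT- vs. control gave 1 against 4.70%. CYC+ vs. control gave 5 (18.5%) against 7.02% of all genes, CYC+ vs. CYC- gave 4 (14.8%) against 1.54%, and CYC- vs. control gave 3 (11.1%) against 3.74%. Genes are not independent samples, and these shares are descriptions of the list.

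Of the 6 genes called in at least 1 comparison, 4 belonged to the taste organ group and 2 to the antennal group. Of the 7 tested taste organ members, 1 was lower in BUT- than in BUT+ and in control, 2 were higher and 1 was lower in CYC+ vs. control, 3 were higher in CYC+ vs. CYC-, and 2 were lower in CYC- vs. control. Of the 8 tested antennal members, 1 was higher and 1 lower in CYC+ vs. control, 1 was higher in CYC+ vs. CYC-, and 1 was lower in CYC- vs. control. None of the 5 tested Minus-C members, none of the 2 double-domain members and none of the 3 tested members known from the male reproductive tract was called in any of the 6 comparisons. The single tested Plus-C member, *Obp49a*, was not called in them either. The groups overlap in membership, and many of these counts are of a single gene. Of all tested genes, 7.02% were called in CYC+ vs. control, 3.74% in CYC- vs. control and 1.54% between the CYC directions. Between the BUT directions 0.660% were called, and 4.70% for BUT- against control. A share of all genes called in at least 1 comparison is not given here. Whether taste organ members were called more often than other genes was not tested.

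**Figure D2:**
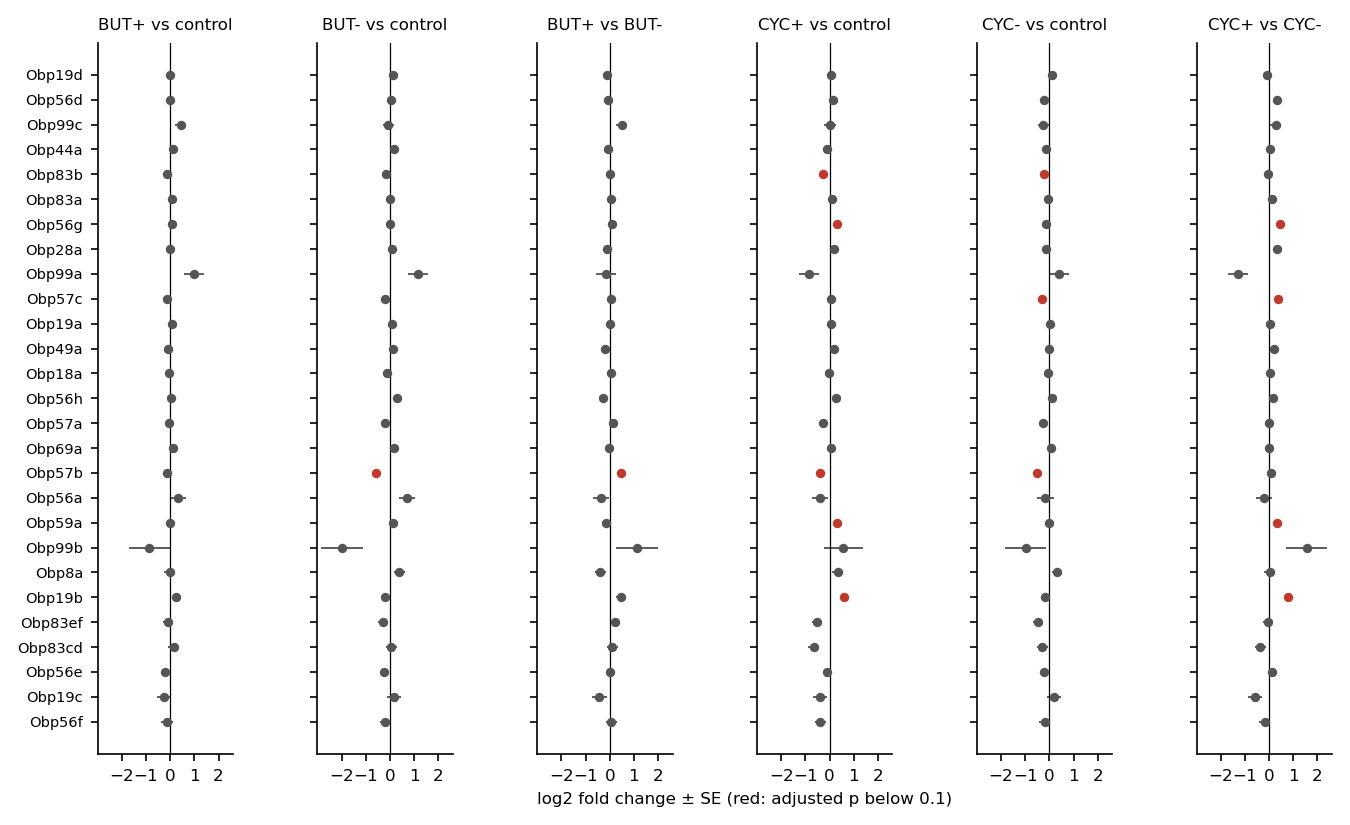
Log2 fold changes with standard errors of the 27 *Obp* genes that passed the filter, in the 6 comparisons, ordered by level per kb. Red points had an adjusted p below 0.1. *Obp57b* is red in 4 panels, BUT+ vs. control is without a red point, and *Obp99a* and *Obp99b* lie farthest from 0 with wide errors and no call.

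*Obp57b* (FBgn0043534, 2R, 20504251 to 20505136, plus strand), a gene of the labellar taste organ, was called in 4 of the 6 comparisons, in both regimes. Its level was 42.2, 39.6 and 49.2 CPM in control lines 1 to 3, and 38.7, 41.2 and 39.4 CPM in the BUT+ lines. It was 27.1, 26.9 and 32.9 CPM in the BUT- lines. All 3 BUT- lines thus lay below every BUT+ and every control line. *Obp57b* was lower in BUT- than in control by a log2 fold change of -0.59 ± 0.12 (SE; edgeR adjusted p = 0.00730), and higher in BUT+ than in BUT- by 0.46 ± 0.12 (adjusted p = 0.0993). The second of these calls depended on single lines, with an estimate of 0.40 to 0.56 and a call in 4 of 15 fits that each left out 1 line. The first was called in all 15.

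In the CYC regime *Obp57b* was at 31.7, 36.2 and 31.6 CPM in CYC+ and at 39.8, 23.4 and 30.0 CPM in CYC-. The CYC+ lines lay below the control lines, whereas the first CYC- line reached the lowest control line. It differed from control by -0.40 ± 0.12 on the log2 scale in CYC+ (edgeR adjusted p = 0.0539) and by -0.49 ± 0.12 in CYC- (adjusted p = 0.0302). The CYC- call was lost without the second CYC- line, where the estimate was lowest in size at -0.33 over the 15 fits, or without the third control line. The CYC+ call was lost without CYC+ line 1 or 3 or control line 1 or 3. The 3 CYC- lines also differed among themselves, as described below.

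*Obp57c* (FBgn0034509, 2R, 20503584 to 20504202, plus strand), which ends just upstream of *Obp57b*, was at 125, 114 and 127 CPM in the CYC+ lines and at 102, 85.6 and 96.5 CPM in the CYC- lines. Control lines were at 123, 113 and 115 CPM. CYC- therefore lay below both other treatments in every line. *Obp57c* was higher in CYC+ than in CYC- by 0.36 ± 0.09 (edgeR adjusted p = 0.0596) and lower in CYC- than in control by -0.30 ± 0.09 (adjusted p = 0.0747). In the BUT lines it ranged from 91.3 to 113 CPM and no difference was called. *Obp57a*, the third gene of this group, was called in none of the 6 comparisons, with 33.8, 30.6 and 40.7 CPM in CYC+ and 43.4, 44.3 and 38.1 CPM in control. The estimates of *Obp57c* stood at 0.30 to 0.42 for CYC+ vs. CYC- and at -0.36 to -0.24 for CYC- vs. control when 1 line at a time was left out, and the calls held in 11 and 9 of 15 such fits.

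*Obp56g* (FBgn0034474, 2R, 19783484 to 19784043, minus strand), a gene of taste sensilla, had its highest treatment mean in CYC+. Its level was 169.8, 143 and 180.2 CPM in the CYC+ lines, 122, 114 and 128 CPM in the CYC- lines and 134, 139 and 130.1 CPM in control. All CYC+ lines exceeded all CYC- and all control lines. It was higher in CYC+ by 0.44 ± 0.10 than in CYC- (edgeR adjusted p = 0.0341) and by 0.29 ± 0.10 than in control (adjusted p = 0.0843). The first call held in 13 of 15 fits without 1 line, and the second in 8 of 15. In BUT+ it was at 143, 151 and 135 CPM and in BUT- at 127, 133 and 143 CPM, ranges that overlapped.

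*Obp19b* (FBgn0031110, X, 20416733 to 20417812, plus strand), expressed in taste sensilla of the proboscis, was at 19.7, 11.95 and 20.1 CPM in the CYC+ lines. The CYC- lines were at 11.3, 10.9 and 8.24 CPM and the control lines at 9.57, 13.6 and 10.9 CPM. CYC+ lines 1 and 3 stood above all others in the series, and CYC+ line 2 lay within the control range. It was higher in CYC+ by 0.77 ± 0.17 on the log2 scale than in CYC- (edgeR adjusted p = 0.0428) and by 0.60 ± 0.17 than in control (adjusted p = 0.0459). Both calls were lost without CYC+ line 1 and also without CYC+ line 3, and over all left-out lines the estimates were 0.64 to 0.97 and 0.47 to 0.81. BUT+ lines were at 12.3, 14.7 and 13.3 CPM and BUT- lines at 10.3, 7.18 and 12.1 CPM, with no call.

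*Obp59a* (FBgn0034766, 2R, 22702695 to 22703786, plus strand), which is known for its part in humidity sensing in the antenna, was at 37.3, 33.2 and 41.3 CPM in CYC+. It was at 28.7, 33.4 and 27.4 CPM in CYC- and at 29.3, 31.2 and 29.7 CPM in control. CYC+ lines lay above all control lines but overlapped with the second CYC- line. It was higher in CYC+ by 0.31 ± 0.09 than in control (edgeR adjusted p = 0.0534) and by 0.32 ± 0.09 than in CYC- (adjusted p = 0.0986). The latter call held in 3 of 15 fits without 1 line and is therefore close to the threshold. The gene overlaps *CG30259* on the opposite strand, and the strand setting of the counts is not given in the sources used here. *CG30259* itself was listed at 0.218 to 0.679 CPM over the lines.

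*Obp83b* (FBgn0010403, 3R, 5976177 to 5976817, minus strand), the OS-E gene, was lower in both CYC treatments than in control. It was at 162, 159 and 173 CPM in CYC+, 175, 168 and 167 CPM in CYC- and 189, 209 and 191 CPM in control. The control lines exceeded all 6 CYC lines. Its difference from control was -0.25 ± 0.06 on the log2 scale in CYC+ (edgeR adjusted p = 0.0176), a call that held without any 1 of the 15 lines, and -0.21 ± 0.06 in CYC- (adjusted p = 0.0723), a call that held in 10 of 15 such fits. BUT+ lines were at 163, 189.5 and 179.6 CPM and BUT- lines at 166, 179 and 182 CPM, all but BUT+ line 2 below every control line. The estimates against control were negative here too, -0.15 ± 0.06 in BUT+ (edgeR adjusted p = 0.235) and -0.16 ± 0.06 in BUT- (adjusted p = 0.166), and were not called. In control line 2 the second sample stood at 232 CPM, against 184 to 195 CPM in the other control libraries. *Obp83a*, the neighbouring OS-F gene, was at 292, 294 and 331 CPM in CYC+ and at 276, 318 and 268 CPM in control, and its log2 fold change of 0.09 ± 0.08 was not called (adjusted p = 0.574).

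**Figure D3:**
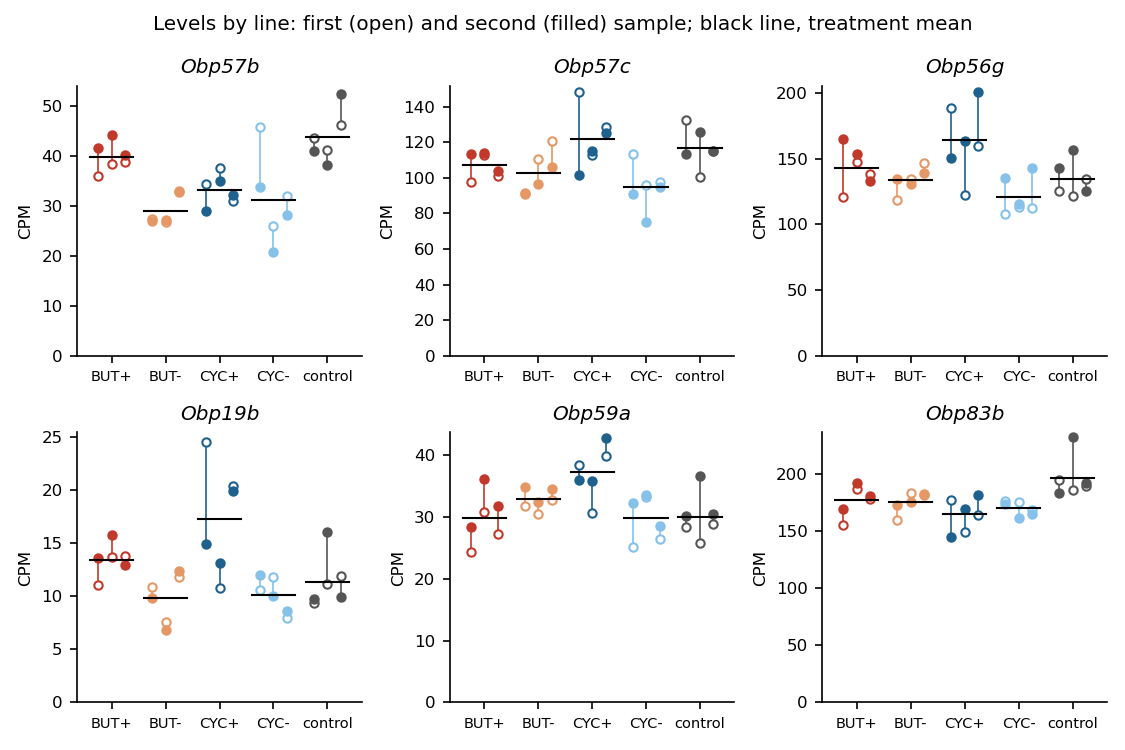
Levels in CPM of the 6 *Obp* genes called in at least 1 of the 6 comparisons. Each vertical pair of points is 1 line with its first sample open and its second sample filled, and the black bar is the mean of the 3 lines of a treatment. The mean of *Obp57b* is lowest in BUT-, with lines at 27.1, 26.9 and 32.9 CPM, but its lowest line is CYC- line 2 at 23.4 CPM. The mean of *Obp56g* is highest in CYC+, with lines at 169.8, 143 and 180.2 CPM.

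The calls were also examined with 1 sample of each line. With the first samples alone, 15 libraries, no *Obp* gene was called with edgeR in any of the 6 comparisons. With the second samples alone, 2 were called in CYC+ vs. control, 4 in CYC- vs. control and none in the other 4. The 2 libraries of a line were also summed, so that a line counted once. Then 1 *Obp* gene was called in CYC+ vs. control, against 146 of all genes. None was called in the other 5 comparisons, against 0 to 42 of all genes. All 14 called differences, which come from 6 genes, kept their direction in the first and in the second samples. Both subsets are parts of the libraries in which these differences were called, so the directions are not independent of the calls. For *Obp57b* in BUT- vs. control the log2 fold change was -0.58 in first samples and -0.60 in second samples. For *Obp83b* in CYC+ vs. control it was -0.21 and -0.30, and for *Obp19b* in CYC+ vs. CYC- it was 0.88 and 0.65.

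Whether the effect of direction differed between the odorants was tested as an interaction, the difference PI+ minus PI- for 2,3-butanedione minus that for cyclohexanone, where PI+ and PI- are selection for attraction and for avoidance. None of the 27 *Obp* genes was called with edgeR, against 0.530% of all tested genes. DESeq2 called 1 and voom 0, against 111 and 22 of all genes. In edgeR 6 of the 27 had an unadjusted p below 0.05, against 9.04% of all tested genes. The most extreme was *Obp59a* with -0.46 ± 0.13 on the log2 scale (edgeR adjusted p = 0.160). With the sample number as a block edgeR also called 1, against 70 of all genes, so the count depended on the tool and on the block.

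Over all 5 treatments at once, 9 of the 27 genes were called (33.3%), against 19.3% of all tested genes. These were the 6 genes above and *Obp44a*, *Obp83cd* and *Obp99a*. *Obp99a* (FBgn0039678, 3R, 29671657 to 29672334, plus strand), a gene of the Minus-C subfamily, had an adjusted p of 0.0114 in edgeR and kept this call in all 15 fits without 1 line. It was at 258, 143 and 142 CPM in BUT+, 167, 254 and 188 CPM in BUT- and 95.7, 84.7 and 92.5 CPM in control. In CYC+ it was at 64.4, 32.8 and 54.3 CPM and in CYC- at 123, 131 and 111 CPM. The 6 BUT lines were the highest, the 3 CYC+ lines were the lowest, and these groups did not overlap with control. None of the pairwise tests passed the threshold, with -1.27 ± 0.41 in CYC+ vs. CYC- (adjusted p = 0.154) and 1.16 ± 0.41 in BUT- vs. control (adjusted p = 0.136).

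On average over lines, the fat body list was, like *Obp99a*, higher in both BUT treatments and lower in CYC+ than in control. In CYC- *Obp99a* was above control, whereas the list was below it. Its sum over 7 genes was 81233 ± 6015 CPM in BUT+, 65537 ± 18860 CPM in BUT-, 52956 ± 6877 CPM in control, 43642 ± 4658 CPM in CYC- and 28328 ± 6798 CPM in CYC+ (SD, n = 3 lines). Of the 6 tested genes of the list, *Yp1* (log2 -0.88, adjusted p = 0.0433) and *Yp2* (log2 -0.91, adjusted p = 0.0619) were lower in CYC+ than in control. A gene of the same list, *sxe2*, was higher in BUT- by 0.49 (adjusted p = 0.0590) and in CYC- by 0.56 (adjusted p = 0.0348) than in control, and lower in CYC+ than in CYC- by -0.53 (adjusted p = 0.0760). No gene of the list was called in BUT+ vs. control, and no yolk protein gene in BUT- vs. control. In the summed list BUT- line 1, at 44893 CPM, lay below every control line (45590 to 59208 CPM). The part of the fat body list in the levels of *Obp99a* was not tested.

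*Obp44a*, a gene expressed in glia of the central nervous system, was at 1085, 1026 and 944 CPM in BUT+, 1071, 912 and 1197 CPM in BUT- and 901, 940 and 1008 CPM in control. It was at 917, 916 and 804 CPM in CYC+ and at 963, 839 and 787 CPM in CYC-. All BUT+ lines lay above all CYC+ lines and the other treatments overlapped. The adjusted p over the 5 treatments was 0.0868, and the call held in 6 of 15 fits without 1 line. *Obp44a* overlaps *Pabp2* on the opposite strand, which was at 24.9 to 32.4 CPM over the lines. *Obp83cd*, with 8.28, 8.47 and 6.23 CPM in CYC+ and 14.1, 10.4 and 11.7 CPM in control, had an adjusted p of 0.0810 and also held in 6 of 15. *Obp83cd* and *Obp83ef* overlap on opposite strands, so reads in the shared stretch could not be told apart without strand.

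The remaining genes among the 10 highest were called in none of the treatment comparisons. *Obp19d* was at 1526 ± 68.5 CPM in BUT+, 1655 ± 102 CPM in BUT-, 1554 ± 116 CPM in CYC+, 1651 ± 35.0 CPM in CYC- and 1512 ± 60.0 CPM in control (SD, n = 3 lines). Its lines ran from 1433 to 1758 CPM, a 1.23-fold range, and its log2 fold changes had standard errors of 0.08. *Obp56d*, a gene expressed in antennae and labella, was at 1014, 1125 and 1192 CPM in BUT+, 1183, 1230 and 1057 CPM in BUT- and 1238, 1067 and 1353 CPM in CYC+. It was at 1091, 747 and 1052 CPM in CYC- and at 799, 1309 and 1230 CPM in control, so that 1 line of each of these treatments stood low.

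*Obp83a* was at 306, 319 and 274 CPM in BUT+, 299, 287 and 277 CPM in BUT- and 272, 277 and 287 CPM in CYC-. *Obp28a*, a gene of abundant antennal expression, was at 126, 145 and 127 CPM in BUT+, 141, 143 and 142 CPM in BUT- and 161, 117 and 185 CPM in CYC+. It was at 122, 103 and 143 CPM in CYC- and at 116, 162 and 127 CPM in control. For *Obp83a* all CYC+ lines lay above all CYC- lines and the other treatments overlapped, and for *Obp28a* all treatments overlapped. *Obp99c* was at 1023, 972 and 791 CPM in BUT+, 479, 771 and 728 CPM in BUT-, 938, 578 and 579 CPM in CYC+, 580, 558 and 608 CPM in CYC- and 617, 819 and 629 CPM in control. The largest pairwise estimate, 0.49 ± 0.24 on the log2 scale for BUT+ vs. BUT-, was not called (edgeR adjusted p = 0.493).

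**Figure D4:**
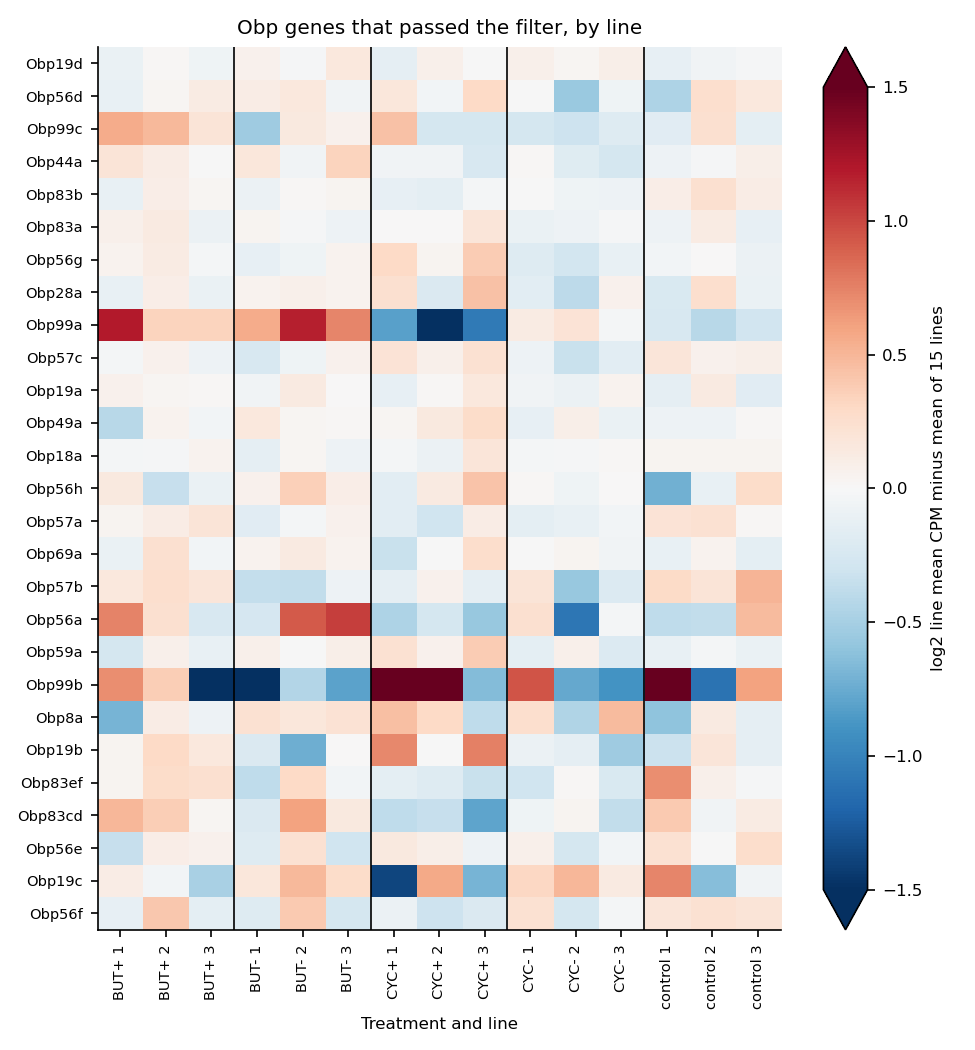
Line means of the 27 *Obp* genes that passed the filter, as log2 CPM minus the mean of the 15 lines, with columns ordered by treatment and line. Red is above and blue below the mean of a gene, and the scale ends at 1.5 in either direction. *Obp99b* shows the widest range between lines, 26.8-fold, and *Obp99a* is blue in the 3 CYC+ lines.

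Lines of the same treatment differed in several *Obp* genes. The test of lines within treatments called 5 of 27 (18.5%), *Obp19b*, *Obp19c*, *Obp56d*, *Obp56h* and *Obp57b*, against 7.99% of all tested genes. *Obp56h* (FBgn0034475, 2R, 19815554 to 19816204, plus strand), known in *Drosophila* for a role in mating behavior, was at 26.3, 40.3 and 52.7 CPM in the control lines, with 26.9 and 25.7 CPM in the 2 samples of line 1 and 55.5 and 49.98 CPM in those of line 3. The samples of a control line were thus alike and the lines were apart (edgeR adjusted p over all lines within treatments = 0.00409). Its lines were at 48.0, 34.2 and 40.5 CPM in BUT+, 45.6, 55.6 and 46.5 CPM in BUT-, 39.0, 47.6 and 58.4 CPM in CYC+ and 43.9, 41.5 and 43.6 CPM in CYC-. All BUT- lines lay above all CYC- lines, the other treatments overlapped, and *Obp56h* was called in none of the 6 comparisons.

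*Obp19c* had the smallest adjusted p of these 5, 0.00174. It was at 2.05, 7.89 and 3.28 CPM in the CYC+ lines and at 8.84, 3.42 and 5.14 CPM in the control lines, while the BUT- lines stayed between 5.98 and 7.42 CPM. *Obp56d* (adjusted p = 0.00510) had its low lines in CYC- and control, as given above. For *Obp57b* (adjusted p = 0.0311) the call was lost without CYC- line 1 or CYC- line 2, which stood at 39.8 and 23.4 CPM. For *Obp19b* (adjusted p = 0.0340) it was lost without CYC+ line 2 or BUT- line 2.

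The SD between lines of the same treatment, on the log2(CPM + 0.5) scale, had a median of 0.178 over the 27 *Obp* genes and of 0.105 over all 9240 tested genes. The highest over the lowest of the 15 lines had a median of 1.64-fold over the *Obp* genes and of 1.34-fold over all tested genes. *Obp99b* had an SD of 1.24, above 99.8% of all tested genes. *Obp56a* with 0.533, *Obp19c* with 0.509, *Obp8a* with 0.375 and *Obp99a* with 0.350 followed. A line mean carries the spread between the samples of that line, so this SD holds both kinds of spread. Of these genes only *Obp19c* was called in the test of lines within treatments. The edgeR adjusted p was 0.460 for *Obp99b*, 0.220 for *Obp56a*, 0.102 for *Obp8a* and 0.969 for *Obp99a*. *Obp18a* and *Obp19d* were the least variable with 0.075 each, below the median of all tested genes.

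*Obp99b* (FBgn0039685, 3R, 29716254 to 29716896, minus strand), another Minus-C gene that is known for male-biased expression in the fat body of the head, was at 19.6, 15.7 and 4.17 CPM in BUT+ and at 2.29, 8.95 and 6.97 CPM in BUT-. It was at 38.4, 61.4 and 7.75 CPM in CYC+, 23.3, 7.15 and 6.53 CPM in CYC- and 47.6, 5.62 and 18.5 CPM in control. All treatments overlapped. Its largest estimate, -1.97 ± 0.87 on the log2 scale for BUT- vs. control, was not called (edgeR adjusted p = 0.252), and leaving out 1 line at a time moved it between -2.44 and -0.99. It was called in none of the 6 comparisons.

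*Obp99b* also spread widely between the 2 samples of some lines, and the test of lines within treatments did not call it. In the CYC+ lines the first samples were at 74.6, 115 and 13.2 CPM and the second samples at 2.17, 7.35 and 2.33 CPM. In the CYC- lines the first samples were at 44.9, 12.01 and 9.70 CPM and the second at 1.77, 2.28 and 3.37 CPM. The first sample was thus higher than the second in all 6 CYC lines, by 2.88-fold to 34.3-fold. In the BUT+ lines the first samples were 1.03, 1.00 and 0.858 times the second, in the BUT- lines 1.57, 0.770 and 0.935 times, and in the control lines 1.38, 0.357 and 1.13 times. The difference between the CYC lines and the others was not tested.

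Second against first samples of the same line, tested over all 15 lines, called 12 of the 27 *Obp* genes (44.4%), against 25.8% of all tested genes. The sample number is only a name in the labels, and collection of the samples was randomized over 5 days according to the methods of the study. The 7 genes lower in second samples were *Obp18a*, *Obp57a*, *Obp83cd*, *Obp83ef*, *Obp99a*, *Obp99b* and *Obp99c*. The 5 higher ones were *Obp28a*, *Obp49a*, *Obp56g*, *Obp59a* and *Obp83a*. By group, 3 of 5 tested Minus-C members were lower and 3 of 8 tested antennal members were higher.

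*Obp99a* changed most clearly, with a log2 difference of -1.05 ± 0.17 (edgeR adjusted p = 0.00118). The second sample was lower in 13 of 15 lines, with means of 90.3 ± 57.8 CPM in second and 169 ± 85.6 CPM in first samples (SD, n = 15). BUT+ line 3 and control line 1 were the exceptions. *Obp99c* (FBgn0039682, 3R, 29685736 to 29689311, minus strand) was lower by -0.49 ± 0.10 (adjusted p = 0.00362), also in 13 of 15 lines, with 600 ± 199 against 823 ± 201 CPM. *Gycalpha99B*, which overlaps it on the opposite strand, did not pass the threshold in the same test (log2 0.07, adjusted p = 0.207). *Obp99b* was lower by -1.19 ± 0.47 (adjusted p = 0.0898) in 11 of 15 lines, and this call was lost in 7 of 15 fits without 1 line.

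**Figure D5:**
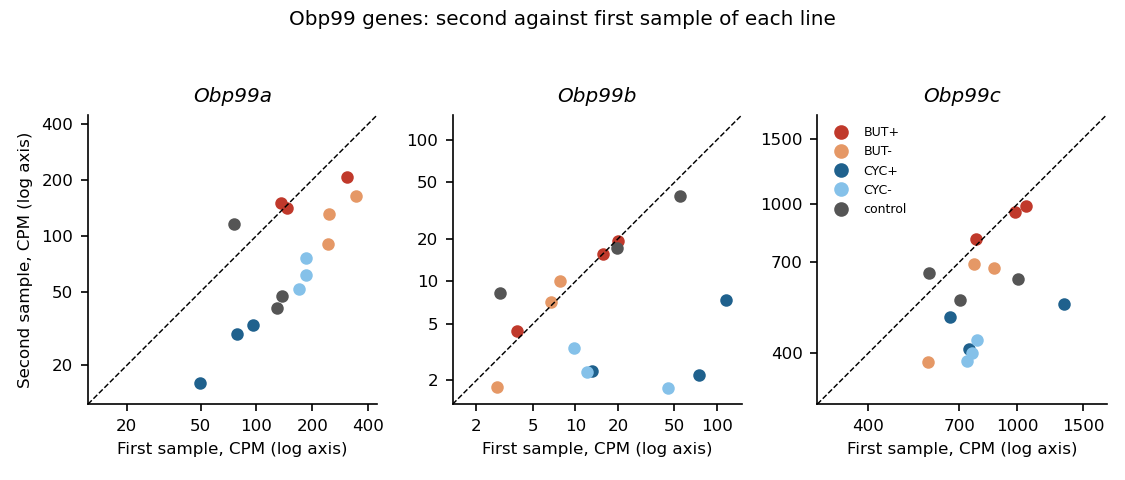
Second against first sample of each of the 15 lines for the 3 Minus-C genes *Obp99a*, *Obp99b* and *Obp99c*, in CPM on log axes, with the dashed line marking equal levels and colors marking treatments. Points below the line were lower in the second sample, 13 of 15 for *Obp99a*, 11 of 15 for *Obp99b* and 13 of 15 for *Obp99c*. The 6 CYC lines lie farthest below it for *Obp99b*.

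The fat body list was lower in the second sample of all 15 lines, with *Yp3* changing by -0.90 (edgeR adjusted p = 0.00117), *Yp1* by -0.56 and *Lsp2* by -2.22 on the log2 scale. Among the 6 tested genes of that list 4 were lower and none was higher. The antennal list had 3 of 10 genes higher and none lower, and its sum was higher in the second sample of 12 of 15 lines. All 3 muscle genes were higher. The part of these differences in the levels of the *Obp* genes was not tested.

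The antennal members that rose in second samples did so by small amounts. *Obp59a* was higher in the second sample of 14 of 15 lines, by 0.16 ± 0.04 (edgeR adjusted p = 0.00682), and *Obp83a* in 13 of 15, by 0.15 ± 0.04 (adjusted p = 0.0222). *Obp28a* was higher in 12 of 15 lines, by 0.24 ± 0.07 (adjusted p = 0.0300). Of the taste organ members, *Obp57a* was lower in 14 of 15 lines, by -0.21 ± 0.05 (adjusted p = 0.00677), and *Obp49a* was higher in 11 of 15, by 0.18 ± 0.05 (adjusted p = 0.0125). *Obp83cd* and *Obp83ef* were each lower in 13 of 15 lines, by -0.45 ± 0.11 and -0.33 ± 0.10. The calls of *Obp18a* and *Obp56g* held in 5 and 6 of 15 fits without 1 line.

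Other genes of odor detection were followed as a list of 14, all of which were tested. They include the co-receptors *Orco*, *Ir8a*, *Ir25a* and *Ir76b*, the membrane proteins *Snmp1* and *Snmp2*, the odorant-degrading esterase gene *Jhedup* and the secreted antennal proteins *lush*, *a5*, *a10* and *Os-C*. None was called in the 3 comparisons of the BUT regime or in CYC+ vs. CYC-, where 0.660 to 4.70% of all genes were called. In CYC+ vs. control 2 were called, both higher, against 7.02% of all tested genes. They were *a5*, by 0.42 (edgeR adjusted p = 0.0189), and *Snmp2*, by 0.27 (adjusted p = 0.0835). *Snmp2* was also called in lines within treatments (edgeR adjusted p = 0.036). In CYC- vs. control 1 was called, against 3.74% of all tested genes, and *Jhedup* was lower by -0.30 (adjusted p = 0.0410). In second against first samples 6 of the 14 were called, all higher, against 25.8% of all tested genes. *a5* and *Jhedup* were among these 6. The antennal list summed to 723 ± 60.9 CPM in CYC+ and to 656 ± 35.1 CPM in control (SD, n = 3 lines), with CYC+ line 3 at 793 CPM. CYC+ line 3 was also the highest of all lines for the called genes *Obp56g*, *Obp19b*, *Obp57c* and *Obp59a*. It was the highest as well for *Obp18a*, *Obp19a*, *Obp28a*, *Obp49a*, *Obp56d*, *Obp56h*, *Obp69a* and *Obp83a*, which were called in no pairwise comparison. Its high levels were thus not particular to the called genes. Other lines were the highest for the remaining tested *Obp* genes. The part of CYC+ line 3 in the CYC+ differences was not tested beyond leaving out that line.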

How the data were processed

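Reads had been trimmed by the authors (Trim Galore!, Cutadapt) and aligned with STAR to release 6 of the *D. melanogaster* genome. The deposited values are raw counts per gene and library, not normalized. The counting tool, strand setting and treatment of multi-mapping reads are not given in the sources used here. The submitters' notes name no tool versions.

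Counts were analysed with edgeR 4.0.16 (R 4.3.3): TMM factors, genes of at least 1 CPM in at least 15 of 30 libraries, glmQLFit and glmQLFTest with 5 treatment means, and Benjamini-Hochberg adjustment over all 9240 genes, called below 0.1. The 2 libraries of a line entered as separate samples, without a term for line. The p-values of the treatment comparisons therefore rest on the spread between libraries of a treatment, between and within lines together. They count the 6 libraries of a treatment as independent although they come from 3 lines. Lines within treatments were tested against the samples of a line, and second against first samples with lines as blocks. Scripts were tested on simulated data. Exon lengths came from Ensembl annotation 115, in which all 51 genes were found. The Ensembl and the authors' annotation use the same assembly.

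Alternatives were DESeq2 1.42.0, limma 3.58.1 voom with lines as a random block, other normalization, filters, thresholds and sample subsets, and leaving out each line. Genes were named where called, among the 10 highest levels, or *Obp56h* and *Obp99b*. Members, lists and tests were chosen with earlier results of these data known. The marker list entry *apolpp* was not matched by symbol.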

Additional observations from a re-analysis of the deposited data

Results flagged for a closer look

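In 9 of 135 groups of 6 libraries (27 genes in 5 treatments), 1 library stood apart from the other 5 by a gap larger than Dixon's 95% limit for 6 values, and chance alone gives about 1 in 20 such groups. *Obp99b* was at 44.9 CPM in the first sample of CYC- line 1, against 1.77 to 12.01 CPM in the other CYC- libraries. *Obp99c* was at 1335 CPM in the first sample of CYC+ line 1, against 409 to 746 CPM in the others, and at 1008 CPM in the first sample of control line 2, against 554 to 704 CPM.

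The second sample of control line 2 was the highest of its treatment for both neighbouring genes *Obp83a*, with 357 CPM against 262 to 288 CPM, and *Obp83b*, with 232 CPM against 184 to 195 CPM. *Obp57a* was at 34.9 CPM in the second sample of control line 3, against 41.2 to 44.6 CPM. *Obp56d* was at 914 CPM in the first sample of CYC+ line 2, against 1221 to 1404 CPM. In BUT+, *Obp56h* was at 57.4 CPM in the second sample of line 1, against 34.2 to 41.4 CPM, and *Obp56f* at 1.76 CPM in the second sample of line 2, against 0.841 to 1.08 CPM.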

How the results depend on the processing

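The labels do not say that a line or sample number marks a shared batch or day. Deviations of lines with the same number had a mean correlation of -0.0558 between treatments, and over 0.1 in 2 of 30 pairs. The second-minus-first differences had a mean correlation of 0.217 between lines, over 0.1 in 78 of 105 pairs but not in every pair, so libraries with the same sample number tended to deviate together. With a replicate block by sample number, or by line and sample number, the calls against control were 1 for BUT+, 2 for BUT- and 9 for CYC+, with 1 in the interaction, and a block by line number left every count within 1.5 times. With the 12 libraries compared alone, BUT+ and CYC+ each had 2 calls against control, with 589 and 268 of all genes. CYC- had 0 against control and 0 against CYC+, where 192 and 12 of all genes were called.

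With the libraries of a line summed, there were 0 calls between the directions of either regime. All genes gave 9 for BUT and 0 for CYC. Against control there were 0 for BUT- and CYC-, with 23 and 42 of all genes, and 1 for CYC+, with 146. Over the 5 treatments there were 4, with 598 of all genes. With voom and lines as a random block, there were 0 calls between directions, 2 for CYC+ and 1 for CYC- against control. First samples alone gave 0 in the 5 comparisons with a call and 1 over the 5 treatments. Over all genes these were 0 to 189 and 160. Second samples alone gave 0 between directions, 0 for BUT- and 2 for CYC+ against control. These 2 subsets have 15 libraries each.

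With an adjusted p below 0.05, 0 were called in BUT+ vs. BUT-, 2 in CYC+ vs. CYC-, and 2 for CYC+ and 1 for CYC- against control. Without a low-count filter, 0 were called in BUT+ vs. BUT- and 1 in CYC- vs. control, with 54 and 308 of all genes. With 1 CPM required in all 30 libraries, 0 were called in BUT+ vs. BUT-, with 45 of all genes. DESeq2 called 2 in BUT- vs. control, 1 in the interaction and 8 in lines within treatments. RLE size factors left every count within 1.5 times. The cause of these shifts was not tested.

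Leaving out 1 line at a time gave 0 to 1 calls in BUT+ vs. BUT-, 0 to 7 in CYC+ vs. CYC- and 0 to 1 in the interaction, and against control 1 to 2 for BUT-, 1 to 7 for CYC+ and 0 to 3 for CYC-. The count in CYC+ vs. CYC- was 0 without CYC+ line 3 or CYC- line 2, 1 without CYC+ line 1 or CYC- line 3, and 7 without CYC+ line 2. In CYC+ vs. control it was 1 without CYC+ line 1 or control line 1 and 2 without CYC+ line 3 or control line 3. In CYC- vs. control it was 0 without CYC- line 2 or control line 3, with 155 and 236 of all genes. The 14 called treatment differences and the 12 called differences between samples kept their direction in all of these fits. So did 3 differences of *Obp99b* between treatments. These fits reuse most libraries in which the calls were made, so the directions are not independent of the calls. With lengths from the longest transcript, *Obp99c* ranked 2 instead of 3 and the 10 highest genes were the same.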
